A study of Arabidopsis thaliana with 12 samples.

Results

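LHCB4.1, LHCB4.2, LHCB4.3, LHCB5, LHCB6 and LHCB7 of Arabidopsis thaliana were grouped here as minor antenna genes of photosystem II. These 6 genes were taken by their locus codes (AT5G01530, AT3G08940, AT2G40100, AT4G10340, AT1G15820 and AT1G76570) from the 27655 genes listed in the count tables. All 6 had enough reads for a test, as did 21122 genes in all. Polyadenylated RNA of whole seedlings was sequenced in 12 libraries, 3 in each of 4 groups. Wild type was the line the labels give as WT Col (N6000), and the mutant was the T-DNA insertion line SALK_116579, called geralt in the labels and phr2 in the sample titles. Each genotype was sampled at 5 days (wild-type libraries 2, 4 and 8; geralt libraries 1, 3 and 7) and at 12 days (wild-type libraries 6, 10 and 12; geralt libraries 5, 9 and 11). All were raised in culture on B5 medium holding 1% sucrose, with 10 h light and 14 h dark per day, and collected 4 h into the light period. The mutant is 1 insertion line, and the labels do not say how many plants went into the 100 mg of tissue used per library.

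The minor antenna proteins bind chlorophyll a, chlorophyll b and carotenoids and sit as single subunits between the photosystem II core and the trimers of the major antenna. They pass excitation energy to the core, hold the trimers in place and take part in the dissipation of excess light. LHCB4 (the protein CP29) is made from 3 genes, LHCB5 encodes CP26 and LHCB6 encodes CP24, which docks beside CP29. LHCB4.3 differs from the other LHCB4 genes in lacking a stretch near the carboxyl terminus and is known in Arabidopsis for its induction by long exposure to strong light. LHCB7 is a rare relative whose place in the antenna is not settled.

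LHCB4.1 lies at chr5:208866-210548 on the plus strand, LHCB4.2 at chr3:2717557-2718923 on the plus strand and LHCB4.3 at chr2:16745628-16747424 on the plus strand of TAIR10. LHCB5 lies at chr4:6408007-6409849 and LHCB7 at chr1:28728998-28730851, both on the plus strand, and LHCB6 lies at chr1:5446462-5447880 on the minus strand. The coding sequences hold 873 bases in LHCB4.1, 864 in LHCB4.2 and 831 in LHCB4.3. Over aligned coding bases LHCB4.1 and LHCB4.2 were 81.9% identical, LHCB4.1 and LHCB4.3 70.2%, and LHCB4.2 and LHCB4.3 71.6%. Identity between any other pair of the 6 genes was 53.4% to 60.3%. The ends of the coding sequences are shown because they set LHCB4.3 apart. Each is read 5′ to 3′ from a gcggc common to the LHCB4 genes to the stop codon, which is in capitals, from the RefSeq genome TAIR10.1 (nuclear coordinates as in TAIR10). They lie at chr5:210148-210243, chr3:2718570-2718665 and chr2:16747137-16747190.
LHCB4.1: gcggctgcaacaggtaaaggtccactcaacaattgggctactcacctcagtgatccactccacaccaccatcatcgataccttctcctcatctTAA
LHCB4.2: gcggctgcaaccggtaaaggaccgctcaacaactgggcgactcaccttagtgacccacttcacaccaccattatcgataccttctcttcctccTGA
LHCB4.3: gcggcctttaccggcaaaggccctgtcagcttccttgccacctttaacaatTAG
The last stretch took 96 bases in LHCB4.1 and in LHCB4.2 and 54 bases in LHCB4.3. No read of any of the 6 genes was non-unique in any library, so the counts of the LHCB4 genes did not share reads. LHCB4.2 overlaps the antisense locus AT3G08943 by 44 bases and LHCB6 overlaps AT1G15810 on the other strand by 103 bases. These neighbours measured 39.0 to 77.8 CPM and 19.9 to 37.6 CPM (counts per 1000000 reads after library scaling), and reads in the shared bases cannot be told apart because the use of strand is not given.

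The stretches upstream of the LHCB4 genes are shown because the estimates of the geralt effect differed between the 3 genes. Whether the motifs bear on these estimates was not tested. Capitals mark 3 motifs that were searched on both strands, and no marked motif overlaps another. The G-box has the letters CACGTG. The motif CCAATC, which holds the CCAAT box, is also marked where it reads in reverse, as GATTGG in the LHCB4.1 window. The I-box has the letters GATAAG. The windows are chr5:208616-208865, chr3:2717367-2717556 and chr2:16745378-16745627, up to the annotated start, and the LHCB4.2 window stops at the neighbouring gene.
LHCB4.1 upstream: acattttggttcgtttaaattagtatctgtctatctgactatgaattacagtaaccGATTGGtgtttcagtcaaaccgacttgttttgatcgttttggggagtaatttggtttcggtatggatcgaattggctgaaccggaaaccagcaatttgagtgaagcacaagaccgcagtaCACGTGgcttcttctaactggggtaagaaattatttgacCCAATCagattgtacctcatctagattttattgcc
LHCB4.2 upstream: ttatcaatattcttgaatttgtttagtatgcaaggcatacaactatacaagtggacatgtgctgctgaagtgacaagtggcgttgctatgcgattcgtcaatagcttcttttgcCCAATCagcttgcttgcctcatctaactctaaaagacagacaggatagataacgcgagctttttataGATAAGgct
LHCB4.3 upstream: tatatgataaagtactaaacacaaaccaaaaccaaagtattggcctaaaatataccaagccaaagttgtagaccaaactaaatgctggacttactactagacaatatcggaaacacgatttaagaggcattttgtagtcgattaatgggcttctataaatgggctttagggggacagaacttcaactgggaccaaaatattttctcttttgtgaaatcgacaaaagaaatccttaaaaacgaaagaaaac
LHCB4.1 held 1 G-box and 2 copies of CCAATC, LHCB4.2 held 1 CCAATC and 1 I-box, and the LHCB4.3 window held none of the 3 motifs. Of 27419 windows of 250 bases upstream of genes, 6.48% held the G-box, 10.2% held CCAATC and 12.3% held the I-box. In windows of 250 bases LHCB6 held 1 G-box and 1 I-box, LHCB7 held 1 G-box and LHCB5 held none of them. The LHCB5, LHCB6 and LHCB7 windows were not trimmed, and each reaches into another gene. All motif counts are matches of letters only.

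Total reads in genes ran from 41.6 to 115.03 M per library. PHR2, the targeted gene, fell in geralt at 5 days (log2 fold change -2.68, SE 0.37, edgeR adjusted p = 0.0128) as well as at 12 days (log2 fold change -2.80, SE 0.37, edgeR adjusted p = 0.0193). In the gene sets given next, a library stood apart in each of 2 groups. Some 7 genes had less than 0.5 CPM in 5 of the 6 wild-type libraries and more than 2 CPM throughout geralt, and in wild-type library 4 they reached 30.8% to 52.1% of their 5-day geralt means. The median centred log2 CPM of 15 genes of the major photosystem II antenna and the photosystem I antenna was -0.26 in wild-type library 4 against 1.04 in each of libraries 2 and 8. In geralt library 5 it was -2.13, against -0.11 and 0.42 in libraries 9 and 11. All 3 green tissue markers, all 8 root markers and all 3 stomatal lineage markers were detected. Summed green markers (RBCS1A, CA1 and RCA) ran from 24394 to 37752 CPM in wild type and from 12494 to 20280 CPM in geralt at 5 days, and from 41601 to 56543 and from 6731 to 33427 CPM at 12 days. The part of these shifts in the results below was not tested. Summed root markers overlapped between genotypes at both ages. Wild-type library 12 differed from its group, with 37.1 CPM of root markers beside a group median of 214 and a maximum of 302 CPM. Geralt library 3 also differed from its 5-day group, with 250 CPM beside a median of 122 and a minimum of 118 CPM. The 4 seed storage genes stood at 0.03 to 11.1 CPM in sum. Of these, CRA1 measured 10.3 CPM in wild-type library 12, 1.06 CPM in library 6 and 0.08 CPM in library 10. The part of these marker differences in the results below was not tested.

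LHCB4.1, LHCB4.2, LHCB5 and LHCB6 were abundant in every group, and LHCB4.3 and LHCB7 were rare. In TPM (transcripts per 1000000, the authors' values per length) wild type at 5 days measured 6453 ± 427 for LHCB5, 5989 ± 1428 for LHCB4.1, 4653 ± 1084 for LHCB4.2 and 3140 ± 1260 for LHCB6 (SD, n = 3). The libraries of each gene in this order overlapped with those of the next. LHCB4.3 followed at 24.4 ± 4.27 TPM and LHCB7 at 13.1 ± 2.72 TPM (SD, n = 3), without overlap between them or with LHCB6. In wild type at 12 days the first 4 genes kept this order, at 6614 ± 1463, 6276 ± 367, 5215 ± 1155 and 2191 ± 773 TPM (SD, n = 3), and neighbours overlapped down to LHCB4.2. LHCB7, at 14.4 ± 1.51 TPM, then stood above LHCB4.3, at 7.72 ± 2.26 TPM (SD, n = 3), with no overlap.

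In geralt LHCB4.1 led at both ages. At 5 days the order was LHCB4.1 at 2365 ± 462 TPM, LHCB5 at 1710 ± 129, LHCB4.2 at 1121 ± 70.6 and LHCB6 at 900.3 ± 232 TPM (SD, n = 3). The libraries of LHCB4.2 and LHCB6 overlapped and those of the other neighbours did not. LHCB7 came next at 14.1 ± 2.48 TPM and LHCB4.3 was last at 4.88 ± 0.34 TPM (SD, n = 3). At 12 days LHCB4.1 measured 3627 ± 1774, LHCB5 2953 ± 1431, LHCB4.2 2205 ± 1187 and LHCB6 1663 ± 971 TPM (SD, n = 3), all overlapping their neighbours. LHCB7 at 18.0 ± 7.55 TPM and LHCB4.3 at 14.3 ± 5.19 TPM (SD, n = 3) overlapped as well.

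**Figure D1:**
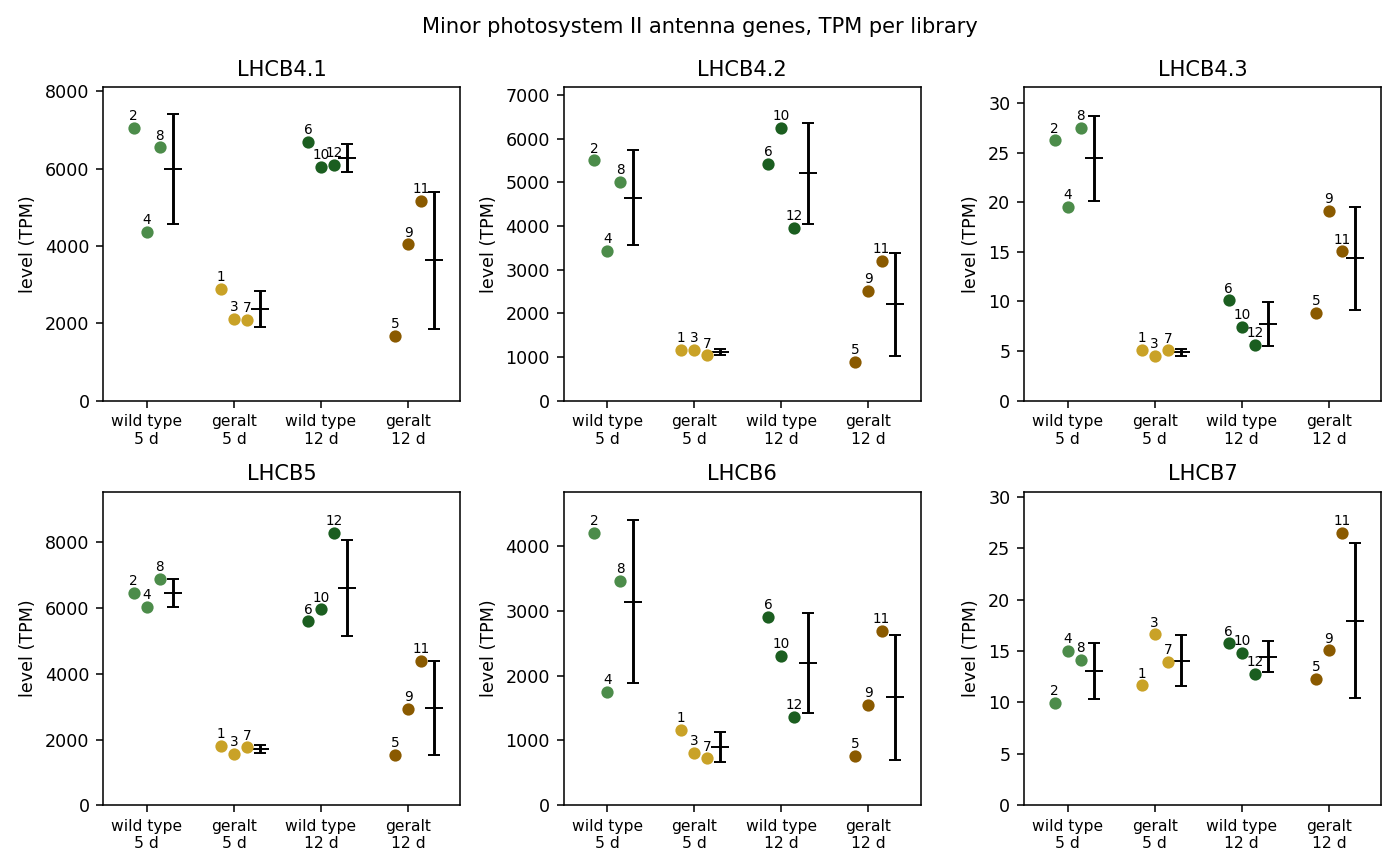
Level of each minor antenna gene in TPM on a linear axis from 0, one point per library with its number, and the mean with SD of the 3 libraries at the right of each group. LHCB4.3 is the gene whose group means change order between the ages. In wild type and geralt they are 24.4 against 4.88 TPM at 5 days and 7.72 against 14.3 TPM at 12 days. In CPM the 12-day means are nearer, at 8.82 and 11.8, and at 12 days the libraries overlap in both units.

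At 5 days the minor antenna genes other than LHCB7 were lower in every geralt library than in any wild-type library, and LHCB4.3 was the gene whose fall passed the test over all genes. LHCB4.3 measured 26.3, 15.1 and 28.4 CPM in wild-type libraries 2, 4 and 8. It measured 4.17, 3.61 and 3.73 CPM in geralt libraries 1, 3 and 7. Every geralt library lay far below every wild-type library, and wild-type library 4 was the lowest of its group. LHCB4.3 fell by 2.60 on the log2 scale (SE 0.39, edgeR adjusted p = 0.0232), a 6.05-fold lower level, and had the 19th smallest p of 21122 genes. In these bulk samples fewer cells that express a gene and less RNA per cell cannot be told apart. LHCB4.3 was the 1 of 6 minor antenna genes past the threshold of 0.05, where 0.26% of all genes passed in either direction and 0.227% passed as lower. The call was lost without any 1 of geralt libraries 1, 3 and 7 or wild-type libraries 2 and 8 (edgeR adjusted p 0.110 to 0.179, log2 fold change -2.43 to -2.66), and the log2 fold change was -2.83 (edgeR adjusted p = 0.00219) without libraries 4 and 5.

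LHCB4.1, the most abundant CP29 gene by mean in all 4 groups, measured 7049, 4365 and 6551 TPM in the wild-type libraries and 2898, 2115 and 2082 TPM in the geralt libraries at 5 days. LHCB4.2, the other abundant CP29 gene, measured 5506, 3434 and 5019 TPM in wild type and 1163, 1160 and 1040 TPM in geralt. The genotypes were apart for both genes, with the geralt libraries of LHCB4.2 close together. The log2 fold change was -1.62 (SE 0.47, edgeR adjusted p = 0.147) for LHCB4.1 and -2.33 (SE 0.52, edgeR adjusted p = 0.0745) for LHCB4.2.

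LHCB5, the gene of CP26, measured 6458, 6024 and 6879 TPM in wild type and 1805, 1563 and 1761 TPM in geralt at 5 days. In TPM its libraries lay close together within each genotype. In CPM the wild-type libraries measured 6212, 4463 and 6837, with library 4 well below the other wild-type libraries. Its log2 fold change was -2.17 (SE 0.42, edgeR adjusted p = 0.0552). LHCB6, the gene of CP24, measured 4205, 1749 and 3467 TPM in wild type and 1164, 813 and 724 TPM in geralt. Wild-type library 4 came nearest to geralt for LHCB6, yet stayed above it. The log2 fold change of LHCB6 was -2.09 (SE 0.57, edgeR adjusted p = 0.124).

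LHCB7 measured 9.95, 15.1 and 14.1 TPM in wild type and 11.7, 16.6 and 14.0 TPM in geralt at 5 days. The genotypes overlapped throughout. Its log2 fold change was -0.02, with a 95% confidence interval from -0.72 to 0.68. In CPM 5 of the 6 genes, all but LHCB7, had every geralt library below every wild-type library at 5 days, as had 14.3% of all genes tested. The median log2 fold change of the 6 genes was -2.13, beside 0.0062 over all genes. DESeq2 called those 5 genes at 5 days, with 4% of all genes called. The same 5 passed in edgeR without wild-type library 4 and geralt library 5 (adjusted p from 0.00219 for LHCB4.3 to 0.0162 for LHCB6), where 2.57% of all genes passed. They also passed in edgeR in a fit of the 6 libraries of that age alone, with 4.65% of all genes.

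At 12 days no minor antenna gene passed the test in edgeR, where 0.8% of all genes passed in either direction. At an unadjusted p of 0.05 LHCB4.1, LHCB4.2 and LHCB5 passed, beside 4005 of 21122 genes, and DESeq2 called LHCB4.2 and LHCB5, with 6.18% of all genes called. LHCB4.1 measured 6699, 6037 and 6092 TPM in wild-type libraries 6, 10 and 12 and 1683, 4039 and 5159 TPM in geralt libraries 5, 9 and 11. LHCB4.2 measured 5432, 6245 and 3966 TPM in wild type and 892, 2523 and 3201 TPM in geralt. For both genes geralt library 5 was far below the other geralt libraries, and the genotypes did not overlap. The log2 fold change was -1.23 for LHCB4.1 (SE 0.46, edgeR adjusted p = 0.188) and -1.71 for LHCB4.2 (SE 0.51, edgeR adjusted p = 0.117).

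LHCB5 measured 5590, 5961 and 8290 TPM in wild type and 1530, 2936 and 4393 TPM in geralt at 12 days, again without overlap. Its log2 fold change was -1.58 (SE 0.41, edgeR adjusted p = 0.0836). LHCB6 measured 2902, 2304 and 1368 TPM in wild type and 757, 1543 and 2688 TPM in geralt, so that geralt libraries 9 and 11 lay within the wild-type range. Its log2 fold change was -0.87 (SE 0.55, edgeR adjusted p = 0.414). In CPM LHCB4.1, LHCB4.2 and LHCB5 had every geralt library below every wild-type library at 12 days, 3 of 6 genes beside 8.91% of all genes tested. Without libraries 4 and 5 the log2 fold changes at 12 days were -0.85 for LHCB4.1, -1.30 for LHCB4.2, -1.22 for LHCB5 and -0.49 for LHCB6, and no member passed (edgeR adjusted p 0.133 to 0.745 for these 4), beside 0.291% of all genes.

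LHCB4.3 did not follow the other CP29 genes at 12 days. It measured 10.1, 7.46 and 5.60 TPM in wild type and 8.84, 19.1 and 15.1 TPM in geralt. Geralt libraries 9 and 11 lay above all wild-type libraries, and geralt library 5 lay within the wild-type range. In CPM the values were 11.1, 10.0 and 5.33 in wild type and 6.03, 16.4 and 13.1 in geralt, with the same overlap. The log2 fold change was 0.42 (SE 0.37, edgeR adjusted p = 0.567), with a 95% confidence interval from -0.38 to 1.23, and 0.73 (adjusted p = 0.439) without libraries 4 and 5. LHCB7 measured 15.7, 14.8 and 12.8 TPM in wild type and 12.3, 15.1 and 26.5 TPM in geralt, and the genotypes overlapped. The log2 fold change of LHCB7 was -0.13, with a 95% confidence interval from -0.83 to 0.57. The units differed in direction here: LHCB7 means in wild type and geralt were 15.5 and 14.1 CPM but 14.4 and 18.0 TPM.

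**Figure D2:**
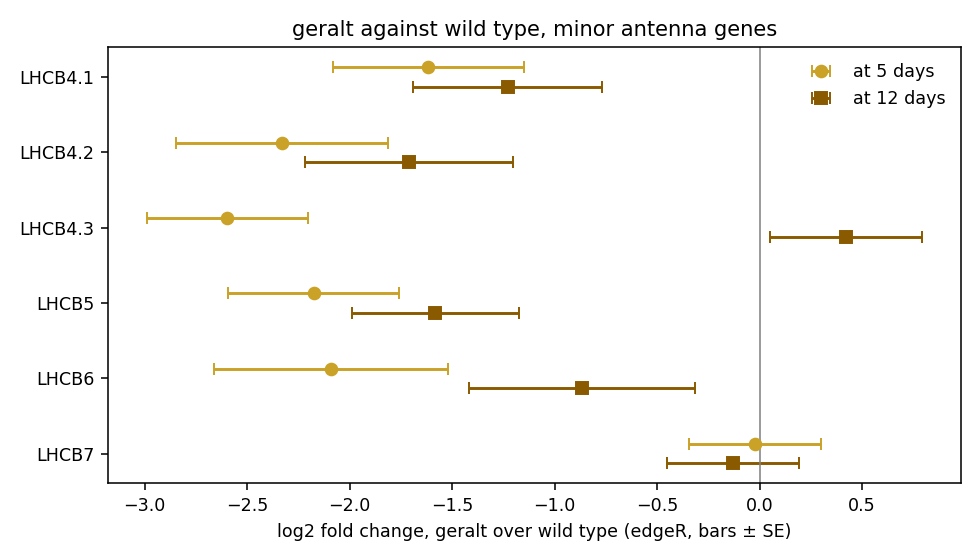
Log2 fold change of each minor antenna gene in geralt over wild type at 5 days (circles) and 12 days (squares), with bars of 1 SE from edgeR. LHCB4.3 stands at -2.60 at 5 days and 0.42 at 12 days, LHCB7 lies near 0 at both ages, and the other genes lie below 0 at both.

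Averaged over both ages, 5 of the 6 minor antenna genes fell in geralt, where 5.53% of all genes passed the test and 3.32% passed as lower. LHCB5 fell by 1.88 (SE 0.29, edgeR adjusted p = 0.00666) on the log2 scale and LHCB4.2 by 2.02 (SE 0.36, edgeR adjusted p = 0.0113). LHCB4.1 fell by 1.42 (SE 0.33, edgeR adjusted p = 0.0283) and LHCB6 by 1.48 (SE 0.40, edgeR adjusted p = 0.0491). LHCB4.3 also passed, at -1.09 (SE 0.27, edgeR adjusted p = 0.0345), but this averages -2.60 and 0.42 and describes neither age. LHCB7 stood at -0.08 (edgeR adjusted p = 0.886). Without libraries 4 and 5 the same 5 genes passed (edgeR adjusted p 0.00123 to 0.0232), beside 3.99% of all genes. The calls of LHCB4.2 and LHCB5 held when any 1 library was left out. The calls of LHCB4.1, LHCB4.3 and LHCB6 were each lost without some libraries: LHCB4.1 without library 1, 2, 3, 7, 8 or 9 (edgeR adjusted p 0.0549 to 0.0784), LHCB4.3 without library 1, 2, 3, 5, 6, 7, 8 or 10 (0.0508 to 0.0960), and LHCB6 without any library but 4, 11 or 12 (0.0699 to 0.123). LHCB6 also missed the threshold with RLE size factors in place of TMM (edgeR adjusted p = 0.0508).

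The balance between the abundant CP29 genes differed between the genotypes. LHCB4.2 made up 43.8%, 43.9% and 43.3% of the summed LHCB4 TPM in the wild-type libraries and 28.6%, 35.4% and 33.3% in the geralt libraries at 5 days. At 12 days it made up 44.7%, 50.8% and 39.4% in wild type and 34.5%, 38.3% and 38.2% in geralt. Every geralt library had a lower share than every wild-type library of its age. As a log2 ratio of TPM, LHCB4.2 over LHCB4.1 was lower in geralt by a mean of 0.58, from a difference of -0.70 at 5 days and -0.47 at 12 days. With genotype labels permuted inside each age (exact permutation test, two-sided), p was 0.005, the smallest that 400 arrangements can give, and 0.03 adjusted by Benjamini-Hochberg over the 6 isoform tests. The difference was -0.54 without libraries 4 and 5 (exact permutation test, p = 0.02, adjusted p = 0.12). That setting leaves 100 arrangements, with a smallest p of 0.01, or 0.06 when multiplied by the 6 tests. Every geralt library still lay below every wild-type library of its age, so no arrangement put geralt lower. With unequal groups an arrangement with geralt higher was larger in size, so a fall could not reach that smallest p. Without geralt library 5, 9 or 11 alone the ratio also missed the threshold (exact permutation test, p = 0.01, adjusted p = 0.06 each). In those settings the smallest p is 0.005, or 0.03 when multiplied by the 6 tests. A fall could not reach it there, because the groups were again unequal and the genotypes again did not overlap. These settings therefore cannot show whether the call held. The difference was -0.66 when exon-exon reads were used in place of TPM (exact permutation test, adjusted p = 0.06).

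LHCB4.3 was a trace of the CP29 transcripts, and its ratio to LHCB4.1 moved with age in opposite directions in the genotypes. Per 1000 TPM of LHCB4.1 there were 3.72, 4.47 and 4.19 TPM of LHCB4.3 in wild type at 5 days and 1.51, 1.24 and 0.920 at 12 days. In geralt there were 1.76, 2.12 and 2.43 TPM at 5 days and 5.25, 4.74 and 2.92 at 12 days. At 5 days every geralt library lay below every wild-type library, and at 12 days every geralt library lay above every wild-type library, library 5 included. The log2 ratio of LHCB4.3 to LHCB4.1 differed between geralt and wild type by -0.98 at 5 days and by 1.80 at 12 days. The mean over ages, 0.41, did not pass (exact permutation test, p = 0.43, adjusted p = 0.43).

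The change between these differences was tested after their values were seen, by the same exchange of genotypes within ages, which asks whether genotype has an effect on the ratio at either age. For LHCB4.3 over LHCB4.1 the difference at 12 days exceeded that at 5 days by 2.78 (exact permutation test, p = 0.005, the smallest possible, adjusted p = 0.0225 over 9 tests). It was 2.56 without libraries 4 and 5 (exact permutation test, adjusted p = 0.06, with 100 arrangements). For LHCB4.3 over LHCB4.2 the differences were -0.28 at 5 days and 2.27 at 12 days, apart by 2.55 (exact permutation test, p = 0.01, adjusted p = 0.03). It was 2.26 without libraries 4 and 5 (exact permutation test, adjusted p = 0.06, with 100 arrangements), and with a pseudocount of 1 on TPM 2.27 (exact permutation test, adjusted p = 0.09). For LHCB4.2 over LHCB4.1 the differences at the 2 ages were apart by 0.23 (exact permutation test, p = 0.62).

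With both genotypes pooled, no isoform ratio passed the test for age. The 12-day minus 5-day difference of the log2 ratio was -0.39 for LHCB4.3 over LHCB4.1 (exact permutation test, adjusted p = 0.43), 0.19 for LHCB4.2 over LHCB4.1 (adjusted p = 0.33) and -0.58 for LHCB4.3 over LHCB4.2 (adjusted p = 0.338). For LHCB4.3 over LHCB4.1 the pooled value joins a difference of -1.78 in wild type and 1.00 in geralt.

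**Figure D3:**
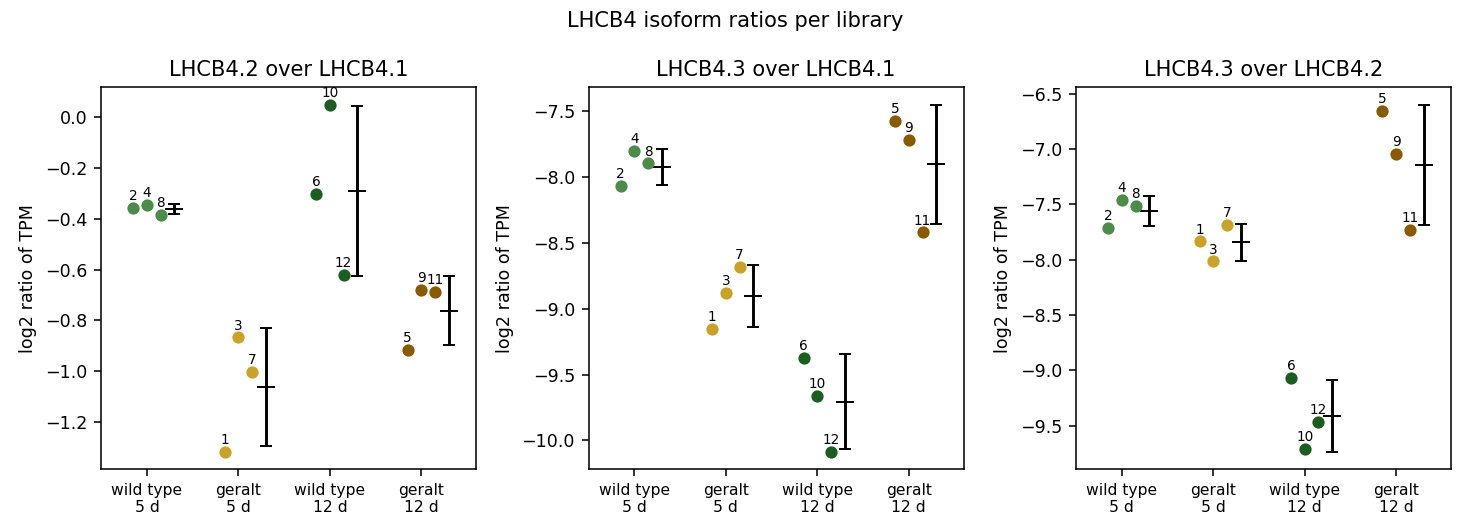
Log2 ratio of TPM between the LHCB4 genes, one point per library with its number, and the mean with SD of 3 libraries per group. The ratio of LHCB4.2 to LHCB4.1 is lower in geralt at both ages, and the ratio of LHCB4.3 to LHCB4.1 is 0.98 lower at 5 days and 1.80 higher at 12 days.

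Between 5 and 12 days LHCB4.3 was the member whose libraries separated by age in both genotypes, downward in wild type and upward in geralt. In wild type it stood at 23.3 ± 7.16 CPM at 5 days and 8.82 ± 3.08 CPM at 12 days (SD, n = 3), and in geralt at 3.84 ± 0.30 and 11.8 ± 5.28 CPM (SD, n = 3). The log2 change was -1.40 in wild type (SE 0.38, edgeR adjusted p = 0.142) and 1.62 in geralt (SE 0.38, edgeR adjusted p = 0.801). Without libraries 4 and 5 these changes were -1.62 and 1.94 (edgeR adjusted p = 0.140 and 0.0760). Of all genes tested, 12.1% had their wild-type libraries at 12 days all below those at 5 days, and 4.73% had their geralt libraries at 12 days all above.

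No gene passed the age tests in edgeR, so 0% of all genes and 0 of the 6 members were called in wild type, in geralt or in the difference between them. At an unadjusted p of 0.05 there were 4179 genes in wild type, 974 in geralt and 2185 in the difference, LHCB4.3 among them each time and no other member. With 1 library left out, age calls reached 426 genes in wild type and 2 in the difference (without wild-type library 6) and 8 in geralt (without geralt library 5), none of them a member. DESeq2 called LHCB4.3 in all 3 (adjusted p 0.0229 in wild type, 0.0297 in geralt and 7.66e-04 for the difference), with 5.43%, 0.274% and 0.378% of all genes called. The difference between the geralt effects at 12 and at 5 days was 3.02 for LHCB4.3 (SE 0.54, edgeR adjusted p = 0.438), which had the smallest p of the 21122 genes in that comparison. It ran from 2.71 to 3.32 when any 1 library was left out, and was 3.56 without libraries 4 and 5 (adjusted p = 0.110).

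The other members moved less with age. In wild type their log2 changes ran from -0.26 for LHCB6 to 0.44 for LHCB4.2, and in geralt from 0.33 for LHCB7 to 1.06 for LHCB4.2. The difference between the geralt effects was 1.22 for LHCB6 (SE 0.78), 0.62 for LHCB4.2, 0.59 for LHCB5, 0.39 for LHCB4.1 and -0.11 for LHCB7, and none of these passed. Among 21 antenna genes of both photosystems, LHCB4.3, LHCB6 and LHCA5 had a negative estimate with age in wild type and a positive one in geralt. In wild type LHCB6 stood at only -0.26 (SE 0.55) and LHCA5 at -0.32 (SE 0.23). The share of all genes with such signs was not counted. The 15 genes of the major antenna and the photosystem I antenna ran from -0.32 to 1.38 in wild type and from 0.32 to 3.37 in geralt.

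**Figure D4:**
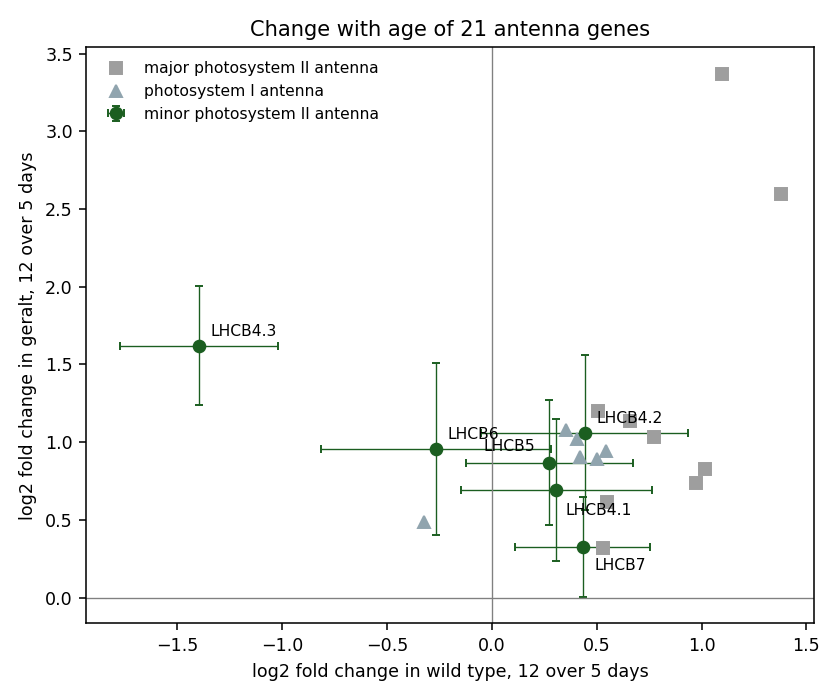
Log2 fold change from 5 to 12 days in wild type (horizontal) and in geralt (vertical) for the 6 minor antenna genes (circles, bars of 1 SE), the major photosystem II antenna (squares) and the photosystem I antenna (triangles). LHCB4.3 lies farthest to the upper left, at -1.40 in wild type and 1.62 in geralt. LHCB6 and LHCA5 also have a negative estimate in wild type and a positive one in geralt. In wild type LHCB6 is at only -0.26 (SE 0.55).

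The deposited counts also split reads by where they fell. Reads in introns were 5.73% to 20.6% of the reads of LHCB7, against 0.07% to 0.31% for LHCB4.1, 0.11% to 0.23% for LHCB5 and 0.51% to 1.41% for LHCB6. LHCB7 and LHCB5 each have 6 exons, with 639 intron bases in LHCB7 and 454 in LHCB5. Over all genes the intron share ran from 0.79% in wild-type library 2 to 1.49% in geralt library 7. The cause of the higher share in LHCB7 was not tested. At 5 days the intron share of LHCB7 was 14.7% to 20.6% in geralt and 8.60% to 15.2% in wild type, which overlap. Exon-exon reads were 5.55% to 18.1% of the exon reads of LHCB4.1 and 12.6% to 38.7% of those of LHCB4.2, both with 1 intron in the longest transcript. For LHCB4.3 this share was 32.0% to 39.7% in wild type and 21.7% to 24.0% in geralt at 5 days, without overlap. At 12 days it was 23.2% to 35.0% and 15.2% to 33.5%, which overlap. The cause of the 5-day difference in this share was not tested. Over all genes this share ran from 45.9% in wild-type library 10 to 60.4% in wild-type library 4. A second annotated transcript covers all 85 intron bases of LHCB4.2 and part of the LHCB4.3 intron, so their intron shares were not compared.

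Some genes of chlorophyll b synthesis and antenna insertion fell in geralt in the mean of both ages. Of 7 genes of antenna biogenesis, 4 passed as lower in edgeR and none as higher, beside 3.32% of all genes passing as lower. All 7 had an estimate below 0, with a list median of -0.79 on the log2 scale beside 0.0045 over all genes tested. CAO, which makes chlorophyll b, fell by 1.86 (SE 0.28), cpSRP54, of the particle that carries antenna proteins to the thylakoid, by 0.95 (SE 0.21), the insertase gene ALB3 by 0.79 (SE 0.19) and the chlorophyll synthase gene CHLG by 0.72 (SE 0.17). CAO had the lowest adjusted p of the 4 (edgeR). The 3 genes of chlorophyll b reduction, NOL, HCAR and NYC1, did not pass, with a list median of -0.39.

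Of 11 genes of antenna phosphorylation and energy dissipation, 3 passed as lower in the mean of both ages, beside 3.32% of all genes. All 11 had an estimate below 0, with a list median of -0.60. PSBS, the sensor protein of energy dissipation, fell by 1.59 (SE 0.36, edgeR adjusted p = 0.0275), SOQ1, which limits a slow form of dissipation, by 0.77 (SE 0.18) and STN7, the kinase of the major antenna, by 0.84 (SE 0.23). The other 8 had estimates from -0.74 for VDE1 to -0.11 for STN8 and did not pass. At single ages no gene of these 3 lists passed in edgeR, and DESeq2 called 4 of their 21 genes at 5 days, beside 4% of all genes, and 4 at 12 days, beside 6.18%.

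Other antenna and photosystem II genes were counted in the same way. In the mean of both ages 3.32% of all genes passed as lower in edgeR. Of 9 genes of the major photosystem II antenna, 8 passed as lower (LHCB1.1, LHCB1.2, LHCB1.3, LHCB1.4, LHCB2.1, LHCB2.2, LHCB2.3 and LHCB3). All 9 had an estimate below 0, with a list median of -2.06, and the near-identical LHCB1 and LHCB2 copies make single counts uncertain. The photosystem I antenna had 5 of 6 genes past the threshold as lower (LHCA1 to LHCA5). All 6 had an estimate below 0, with a list median of -1.55. DESeq2 called all 6 as lower, beside 10.1% of all genes called by DESeq2 in either direction. Of 10 nuclear subunits of photosystem II, 6 passed as lower (PSBW, PSBQ1, PSBQ2, PSBP1, PSBTN and PSBR). All 10 had an estimate below 0, with a list median of -1.45. PSBW also fell at 5 days (log2 fold change -2.04, SE 0.34, edgeR adjusted p = 0.0327). The median of the 6 minor antenna genes was -1.45. GLK1, a transcription factor that activates antenna genes, fell at 5 days (log2 fold change -2.65, SE 0.42, edgeR adjusted p = 0.0321) as well as at 12 days (log2 fold change -2.70, SE 0.42, edgeR adjusted p = 0.0305). Its partner GLK2 stood at -1.33 (SE 0.38, edgeR adjusted p = 0.0601) in the mean of both ages.

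Across the 12 libraries, which share genotype, age and the libraries that stand apart, the members were described by Pearson's r of log2 CPM over 16623 genes. LHCB4.1 was most like LHCA1 (r = 0.996), LHCA4 (0.992) and LHCA3 (0.991) of the photosystem I antenna. LHCB4.2 was most like PSBQ2 (0.989), LHCB3 (0.988) and AT4G10300 (0.987). LHCB5 was most like PETC (0.987), the Rieske protein of the cytochrome complex, GLN2 (0.987) and RBCS-2B (0.986), and LHCB6 was most like APE1 (0.987), CHLM (0.980) and GAPA-2 (0.977). The rare genes had no such close match: LHCB4.3 reached 0.910 with AT4G09750, 0.904 with AT5G18840 and 0.897 with YCF37, and LHCB7 reached 0.923 with AT3G24190, 0.918 with AT3G51330 and 0.903 with HRS1. Within the members LHCB4.1 and LHCB4.2 had r = 0.984, LHCB4.3 had 0.669 with LHCB4.1 and 0.805 with LHCB6, and LHCB7 had at most 0.545 with any of them.

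The authors' deposited table for 5 days gave nearly the same fold changes with lower adjusted p-values. In the authors' deposited table the log2 fold change at 5 days was -2.59 for LHCB4.3 (FDR 6.91e-17), -2.32 for LHCB4.2 (FDR 7.68e-11) and -1.61 for LHCB4.1 (FDR 5.26e-05). It was -2.17 for LHCB5 (FDR 2.32e-11), -2.09 for LHCB6 (FDR 9.24e-07) and -0.12 for LHCB7 (FDR 0.878) in the authors' deposited table. At 12 days the authors' deposited table gave 0.42 for LHCB4.3 (FDR 0.820), -1.72 for LHCB4.2 (FDR 0.0740) and -1.23 for LHCB4.1 (FDR 0.269). The same authors' deposited table gave -1.59 for LHCB5 (FDR 0.0781), -0.87 for LHCB6 (FDR 0.598) and -0.16 for LHCB7 (FDR 0.950). The sources used here do not name the test behind these values.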

How the data were processed

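Counts of reads per gene (total, unique, exon, intron and exon-exon reads), TPM and RPKM were deposited by the authors in 1 table per library, per the file headers. Genes were those of TAIR 10, per the submitters' processing notes. The sources used here do not name the aligner or the counter, or say whether strand was used. The authors' 2 tables of comparisons give log2 fold changes, fold changes, p-values and FDR values, per the file headers. The authors' RPKM values were not used. Members and gene lists were chosen with earlier results of these data known.

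Total gene reads were tested with edgeR 4.0.16 (R 4.3.3; filterByExpr, TMM, quasi-likelihood test, 1 mean per group, 12 libraries, 8 residual degrees of freedom), adjusted by Benjamini-Hochberg over 21122 genes at a threshold of 0.05. The SE is the absolute log2 fold change over the square root of F. CPM are TMM-scaled, and levels between genes are compared in the authors' TPM. Isoform ratios of TPM were tested by exact permutation within strata (scipy 1.17.1, numpy 2.4.6), and 3 tests of age dependence were added after values were seen. Alternatives were DESeq2 1.42.0, RLE size factors, no filter, unique reads, no organellar genes, each library left out, libraries 4 and 5 left out, and 6 libraries per fit. Rules for named genes took all members, PHR2, GLK1, GLK2, list genes past the threshold (otherwise the 3 with the smallest p) and the 3 genes most like each member with an average log2 CPM of at least 1 (prior count 2). The steps were tested on simulated data. Sequencing ran 6 libraries on each of 2 lanes; which library ran on which is not stated in the labels used, and lane entered no fit. The design text calls the 3 libraries biological replications; whether plants were grown apart is not given, so p-values measure the spread between these libraries. With 203 to 1975 reads per library, LHCB4.3 had the lowest median count of the members (538.5 reads). LHCB7 had 366 to 1502 reads (median 705.5) and was counted less than LHCB4.3 in some libraries.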

Additional observations from a re-analysis of the deposited data

Results flagged for a closer look

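The estimates of LHCB4.3 with age had opposite signs in the genotypes (edgeR adjusted p = 0.142 in wild type and 0.801 in geralt). In wild type all 3 libraries at 12 days lay below those at 5 days in CPM, as for 12.1% of all genes, and in geralt all 3 lay above, as for 4.73%. The log2 difference between the geralt effects at 12 and 5 days was 3.02 (edgeR adjusted p = 0.438 over all genes).

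The ratio of LHCB4.3 to LHCB4.1 differed between the ages in its response to genotype by 2.78 on the log2 scale (exact permutation test, adjusted p = 0.0225). For LHCB4.3 over LHCB4.2 the difference was 2.55 (exact permutation test, adjusted p = 0.03). Both tests were added after the values were seen. They exchange genotypes within ages, so they ask whether genotype has an effect on the ratio at either age and do not test the change with age by itself. Without libraries 4 and 5 the values were 2.56 and 2.26 (exact permutation test, adjusted p = 0.06 each, with 100 arrangements), and with a pseudocount of 1 on TPM the value for LHCB4.3 over LHCB4.2 was 2.27 (exact permutation test, adjusted p = 0.09). These results share the LHCB4.3 counts and are not independent of each other, and their cause was not tested.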

How the results depend on the processing

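No paired analysis was possible because the library numbers run from 1 to 12 and no number occurs in more than 1 group. At 5 days the count of members called, 1 in edgeR over 12 libraries, was 5 with DESeq2, 5 without wild-type library 4 and geralt library 5, 5 in a fit of 6 libraries, and 0 to 4 with 1 library left out. At 12 days it was 2 with DESeq2 and 0 to 1 with 1 library left out, and for the mean of both ages it was 2 to 5 with 1 library left out. DESeq2 called 1 member in each age comparison and in the age dependence. Over all genes, calls at 5 days numbered 55 in edgeR and 870 with DESeq2, at 12 days 169 and 1342, and for the mean of both ages 1167 and 2231. With 1 library left out they ran from 4 (geralt library 1) to 314 (geralt library 5) at 5 days, from 4 (geralt library 9) to 504 (wild-type library 6) at 12 days and from 366 (wild-type library 8) to 1330 (geralt library 11) for the mean. With RLE size factors 4 members were called for the mean, without LHCB6 (edgeR adjusted p = 0.0508). The ratio of LHCB4.2 to LHCB4.1 in geralt against wild type ran from -0.67 to -0.50 with 1 library left out and missed the threshold without geralt library 5, 9 or 11 (exact permutation test, adjusted p = 0.06 each). It was -0.66 with exon-exon reads and missed the threshold. It was -0.54 without libraries 4 and 5 (exact permutation test, p = 0.02), where the smallest p of 100 arrangements is 0.01. In the settings that left out a geralt library, a fall could not reach the smallest p because group sizes were unequal. The change of this ratio with age ran from 0.10 to 0.27 with 1 library left out. It passed without wild-type library 12 (0.27, exact permutation test, adjusted p = 0.03). Its age dependence turned from 0.23 to -0.019 with exon-exon reads. The age dependence without libraries 4 and 5 was 2.56 for LHCB4.3 over LHCB4.1 and 2.26 for LHCB4.3 over LHCB4.2 (exact permutation test, adjusted p = 0.06 each), and 2.27 for the latter with a pseudocount of 1 on TPM (adjusted p = 0.09). Estimates near 0 changed sign when 1 library was left out. LHCB7 then ran from -0.22 to 0.11 at 5 days, from -0.55 to 0.15 at 12 days, from -0.29 to 0.067 for the mean of both ages, from -0.11 to 0.61 for age in geralt and from -0.53 to 0.16 for age dependence. LHCB6 ran from -0.62 to 0.046 for age in wild type. Without libraries 4 and 5 LHCB7 stood at 0.15 at 12 days, 0.066 for the mean of both ages and 0.16 for age dependence. The cause of these shifts was not tested. Of 1040 alternative values 896 kept direction and side of the threshold or stayed within the limits set for counts. An estimate that missed the threshold in the main fit counts as kept when it misses again with the same sign. The number therefore does not measure how well the calls held.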
